A study of Homo sapiens with 2 samples.

Results

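ENC 1' was a subcluster of enteric neural crest cells (ENCCs) in day 15 crestospheres, which are free-floating spheres of neural crest cells made from the human embryonic stem cell line H9. Its members were the cells whose deposited metadata gave the cell type ENC and the subtype ENC 1', and they numbered 1665. They made up 33.9% (Clopper-Pearson 95% interval 32.6 to 35.3) of the 4907 ENCCs that carried a subcluster number, out of 5336 cells kept by the authors' quality limits, 6320 cells in the day 15 library and 15947 cells in the series. The other numbered subclusters were ENC 2' with 2377 cells, ENC 3' with 727 and ENC 4' with 138. The series held 1 droplet-based 3′ library of crestospheres in suspension and 1 of adherent cultures on Geltrex at day 10, each pooled from 2 biological repeats whose cells could not be told apart. Cells of both libraries had been taken through an enteric crest induction with BMP4, SB431542, which blocks TGF-β receptors, and CHIR 99021, a drug that activates WNT signalling, followed by retinoic acid. Before day 15 the crestosphere cells were lifted from the monolayer and kept in medium with FGF2 and CHIR 99021. With 1 library per stage there was no replicate check, and every interval covers counting error only.

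Neural crest cells leave the dorsal neural tube and give rise to neurons, glia, pigment cells and mesenchyme. Those that colonise the gut form the enteric nervous system. SOX10 is a transcription factor that maintains the crest progenitor state and the glial and pigment lineages, and ERBB3 is the neuregulin receptor of migrating crest and Schwann cell precursors. In low oxygen the hypoxia-inducible factors (HIFs) are no longer marked for destruction by prolyl hydroxylases, and they bind a short DNA core in promoters and enhancers of genes for glucose uptake, glycolysis, lactate export, blood vessel growth and collagen maturation.

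The ENC 1' cells held 18990003 transcripts counted by unique molecular identifier (UMI). The median cell had 11193 UMIs and 2507 genes, against 11101 and 2556 in ENC 2', 10953 and 2423 in ENC 3', and 10290 and 2114 in ENC 4'. Of the cell barcodes of the day 15 library, 102 (1.61%) also occurred in the day 10 library, and 25 of these were ENC 1' cells.

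SOX10 (chr22:37970686-37987422, minus strand, GRCh38) was at 94.5 CPM (UMIs of the gene per 1e6 UMIs of the same cells, 95% Poisson interval 90.2 to 98.9) in the summed ENC 1' cells, 116 CPM in ENC 2', 90.8 CPM in ENC 3' and 52.8 CPM in ENC 4'. ERBB3 (chr12:56076799-56103505, plus strand) was at 104 CPM (99.6 to 109) in ENC 1', 116 CPM in ENC 2', 89.6 CPM in ENC 3' and 72.6 CPM in ENC 4'. Both markers of ENCCs were thus present in ENC 1' at levels between those of ENC 2' and ENC 4'. After each cell was thinned to 3000 UMIs, 24.98% (22.9 to 27.1) of ENC 1' cells had a SOX10 UMI, 26.8% (24.7 to 29.05) had an ERBB3 UMI and 43.6% had at least 1 of them. Without thinning these shares were 61.3%, 64.1% and 81.9%. In CP1, a cranial placode cluster of the same library with a median of 11735 UMIs per cell, the thinned shares were 1.92% for SOX10 and 0.962% for ERBB3. In the NEP cluster, labelled neuro-epithelial progenitors, they were 0.962% for SOX10 and 3.85% for ERBB3. Whether these UMIs came from free RNA in the droplets, doublets or the cells themselves was not tested. ENC 1' lay well above CP1 and NEP, and the label was met by its markers.

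Each gene was compared as the log2 ratio of CPM + 1 of ENC 1' over the summed ENC 2', ENC 3' and ENC 4' cells, for the 6380 genes with at least 10 CPM over all numbered cells. The subclusters had been made from these same genes, so the ratios describe ENC 1' and were not tested. A ratio of at least 0.5 was reached by 220 genes (3.45% of those compared) and a ratio of -0.5 or below by 93 genes (1.46%). At 1 log2 unit the counts were 49 (0.768%) and 11 (0.172%). ENC 1' was the highest of the 4 subclusters for 981 genes (15.4%) and the lowest for 605 (9.48%). Among G1 cells only, 284 genes passed 0.5 and 549 passed -0.5, with 193 and 86 of them shared with the counts over all cells. The ratios just inside the limits were 0.50 for JUND and -0.50 for TMEM147, and the next genes outside were CMTM8 and C19orf12. Across the compared genes, log2 levels in ENC 1' had a Pearson correlation of 0.982 with ENC 2', 0.976 with ENC 3' and 0.941 with ENC 4', where the classes share a library and the genes are not independent replicates. Against ENC 2' alone 278 genes (4.36%) passed 0.5 and 176 (2.76%) passed -0.5, with a median ratio of -0.07 over all compared genes. Against ENC 3' alone these were 437 (6.85%) and 207 (3.24%), with a median of 0.03. Against ENC 4' alone 2003 (31.4%) and 451 (7.07%) passed, with a median of 0.23, so that counts against ENC 4' start from a shifted centre.

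**Figure D1:**
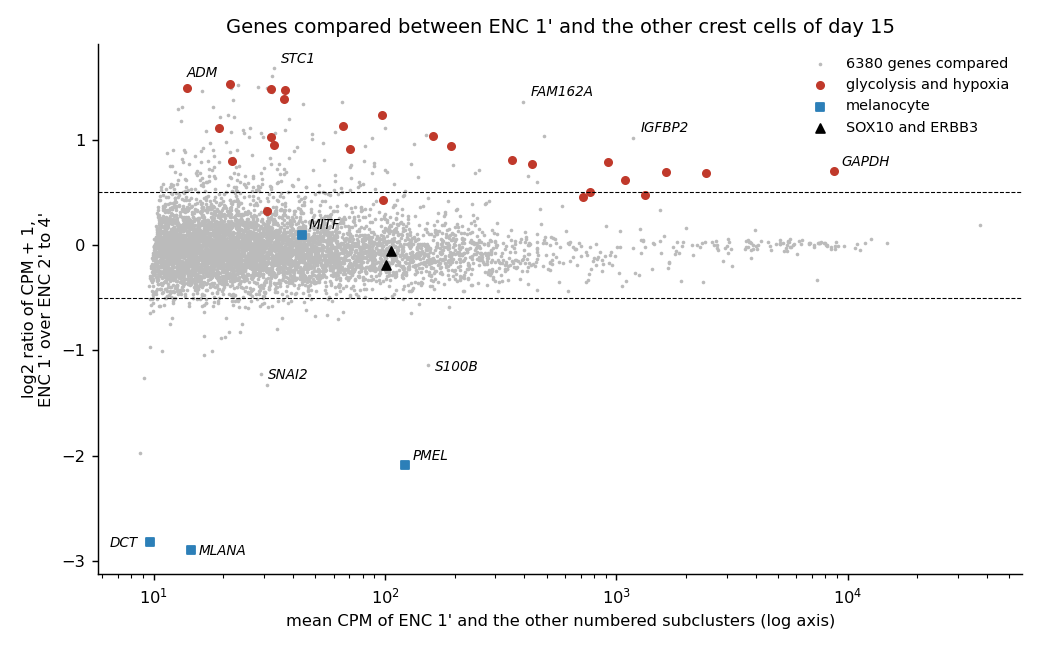
Log2 ratio of ENC 1' over the other numbered subclusters against mean CPM, 1 point per gene for 6380 genes, with dashed lines at the limits of 0.5 and -0.5. The glycolysis and hypoxia genes lie above 0 throughout, 3 of the 4 melanocyte genes lie at the bottom, and SOX10 and ERBB3 lie near 0.

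Genes of glycolysis and the hypoxia response were higher in ENC 1'. Of a list of 28 such genes, 26 were expressed enough to be compared, 22 passed 0.5 and 0 passed -0.5. The median log2 ratio of the list was 0.86, beside -0.04 for all compared genes. The summed level of the list was 23948 CPM (23879 to 24018) in ENC 1', 13995 CPM in ENC 2', 16295 CPM in ENC 3' and 23446 CPM (23203 to 23691) in ENC 4'. ENC 1' and ENC 4' were thus close to each other and above the other subclusters. ENC 2' had the lowest level of the 4 for 24 of the 26 genes, ENC 4' the highest for 16 and ENC 1' the highest for 10. Against ENC 2' alone 24 genes of the list passed 0.5 with a median of 1.07, against ENC 3' alone 20 with a median of 0.65, and against ENC 4' alone 2, while 9 passed -0.5 and the median was -0.19. With each of the other subclusters given equal weight, so that the 138 ENC 4' cells count as much as the rest, only 6 genes passed 0.5, the median was 0.40, and ADM (-0.14) and EGLN3 (-0.054) turned below 0.

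The glucose transporter SLC2A1 (chr1:42925375-42959176, minus strand) was at 136 CPM (131 to 142) in ENC 1', 36.7 CPM in ENC 2', 73.2 CPM in ENC 3' and 338 CPM (310 to 369) in ENC 4', a log2 ratio over the others of 1.23. SLC2A3, another glucose transporter, was at 44.0 CPM in ENC 1', 12.7 CPM in ENC 2', 25.6 CPM in ENC 3' and 173 CPM in ENC 4' (log2 0.95). For both carriers ENC 4' was higher than ENC 1' and the intervals did not overlap. HK2, which phosphorylates glucose once it is inside the cell, was at 43.4 CPM against 20.8 CPM in the others (log2 1.03). In ENC 4' alone HK2 was at 83.8 CPM. The housekeeping form HK1 was at 112 against 83.0 CPM in the others (log2 0.43), below the limit.

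The enzymes further down the pathway were among the most abundant transcripts. GAPDH (chr12:6533927-6538374, plus strand) was at 10846 CPM (10799 to 10893) in ENC 1', 6316 CPM in ENC 2', 7264 CPM in ENC 3' and 9909 CPM (9751 to 10069) in ENC 4', a log2 ratio of 0.70. ENO1 was at 3010 against 1867 CPM in the others (log2 0.69), and LDHA, which turns pyruvate into lactate, was at 2024 against 1250 CPM (log2 0.69). PGK1 was at 1167 against 674 CPM (log2 0.79). For GAPDH and ENO1 the ENC 1' level was above that of ENC 4', while LDHA and PGK1 differed little between those subclusters (log2 0.03 and -0.05). TPI1 (0.47), PGAM1 (0.46) and PFKL (0.32) were higher in ENC 1' without reaching 0.5.

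The less abundant members showed larger ratios. The lactate exporter SLC16A3 was at 53.4 CPM (50.2 to 56.8) in ENC 1', 15.9 CPM in ENC 2', 25.5 CPM in ENC 3' and 58.7 CPM in ENC 4' (log2 1.38). ENO2, the enolase form first described in neurons, was at 47.9 CPM in ENC 1', 11.6 CPM in ENC 2', 23.8 CPM in ENC 3' and 65.3 CPM in ENC 4' (log2 1.48). PDK1, which holds pyruvate back from mitochondrial oxidation, was at 92.2 against 48.6 CPM (log2 0.91). The mitophagy receptor BNIP3 was at 451 CPM in ENC 1' and 327 CPM in ENC 4', and was thus higher in ENC 1'.

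Outside metabolism, the hypoxia response genes EGLN3, ADM, VEGFA and P4HA1 were higher in ENC 1' than in ENC 2' and ENC 3'. All of them were highest in ENC 4'. EGLN3, a prolyl hydroxylase that acts on HIF and is itself a HIF target, was at 21.01 CPM (19.0 to 23.2) in ENC 1', 3.50 CPM in ENC 2', 9.27 CPM in ENC 3' and 52.8 CPM in ENC 4' (log2 1.49). ADM, a vasoactive peptide, was at 32.3 CPM in ENC 1', 5.63 CPM in ENC 2', 12.0 CPM in ENC 3' and 89.7 CPM in ENC 4' (log2 1.53). The angiogenic factor VEGFA was at 26.7 against 11.8 CPM in the summed others (log2 1.11), with 50.8 CPM in ENC 4' alone. P4HA1, a subunit of collagen prolyl hydroxylase, was at 216 CPM in ENC 1' and 437 CPM in ENC 4', with 81.1 CPM in ENC 2'. CA9 (19 UMIs in ENC 1') and NDRG1 (12.4 against 3.58 CPM, log2 1.55) fell below the minimum of 10 CPM and were not compared.

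**Figure D2:**
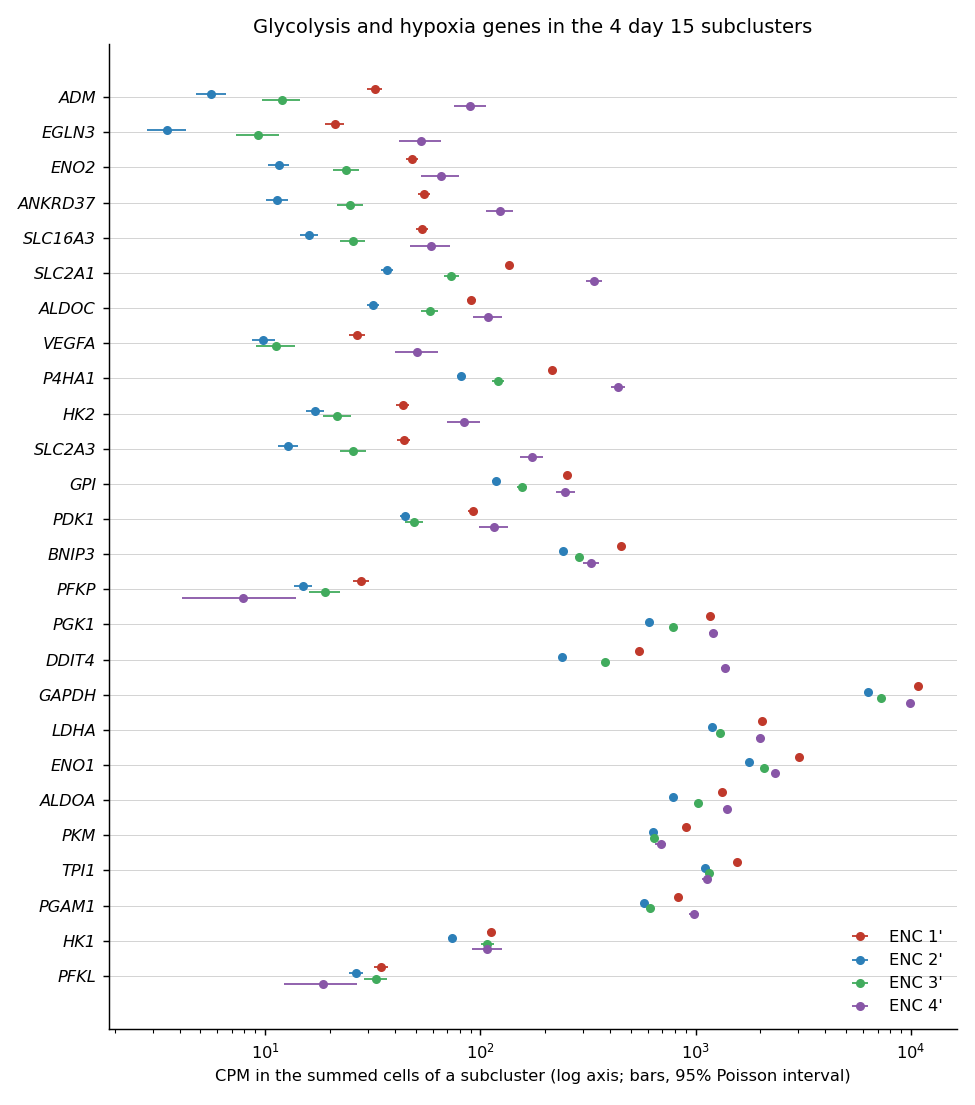
Level of each of the 26 compared glycolysis and hypoxia genes in the summed cells of the 4 subclusters, in CPM on a log axis, with 95% Poisson intervals, ordered by the log2 ratio of ENC 1'. ENC 1' lies to the right of ENC 2' and ENC 3' for all 26, and ENC 4' lies further right for 16.

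Promoter sequences are shown for 6 of these genes, which were picked because a HIF core motif can be read in them. Whether their levels vary together from cell to cell was not tested. The core bound by HIF is CGTG after an A or a G. The motif searched first was ACGTG on either strand, so that CACGT counts as its reverse complement and CACGTG holds both in overlap. Windows were the 300 bases from 250 before to 50 after each RefSeq start (GRCh38.p14). Of the 22 list genes past 0.5, 20 matched by symbol with 32 windows, and 18 windows (56.2%) held the motif. It was in 2021 of 7422 windows (27.2%) of the compared genes, of which 5052 of 6380 matched, in 32.2% of the windows of all genes past 0.5, in 24.2% of those past -0.5 and in 21.4% of all 35116 windows. Genes with several starts gave several overlapping windows, and the median GC content was 69.7% in the list windows and 65% in those of compared genes. Over all 26 compared list genes, of which 24 matched, 19 of 43 windows (44.2%) held it. The list was drawn up from genes of the kind that HIFs bind. A share above that of other genes therefore says nothing about ENC 1' in particular. The other form of the core, GCGTG, was in 46.9% of the windows of the 22 genes and 50.7% of those of compared genes, so the list did not stand higher there. The 6 genes have the highest ratios among list members with the motif upstream of the start. ADM (1.53), EGLN3 (1.49), SLC2A1 (1.23) and VEGFA (1.11) had ratios in the same range but are not shown. For these, either no window matched or no matched window held the motif in its 250 upstream bases. The 250 upstream bases are given 5′ to 3′ on the gene's strand, with the motif in capitals.
ENO2, chr12:6914330-6914579, plus strand: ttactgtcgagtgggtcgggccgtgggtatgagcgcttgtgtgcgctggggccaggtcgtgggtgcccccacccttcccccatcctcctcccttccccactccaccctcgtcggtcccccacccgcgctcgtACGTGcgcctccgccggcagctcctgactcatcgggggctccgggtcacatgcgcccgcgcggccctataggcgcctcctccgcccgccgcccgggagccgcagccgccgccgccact
ANKRD37, chr4:185396591-185396840, plus strand: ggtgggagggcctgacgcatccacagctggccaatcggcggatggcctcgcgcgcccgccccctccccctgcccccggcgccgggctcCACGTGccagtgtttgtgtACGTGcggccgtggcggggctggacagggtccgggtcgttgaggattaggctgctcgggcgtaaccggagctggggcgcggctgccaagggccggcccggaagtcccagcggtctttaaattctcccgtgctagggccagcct
SLC16A3, chr17:82228792-82229041, plus strand: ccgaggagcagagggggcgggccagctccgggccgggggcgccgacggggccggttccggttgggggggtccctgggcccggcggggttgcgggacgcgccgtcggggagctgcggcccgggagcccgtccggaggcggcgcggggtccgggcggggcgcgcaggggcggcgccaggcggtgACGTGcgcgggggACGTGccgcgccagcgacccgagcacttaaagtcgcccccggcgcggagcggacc
ALDOC, chr17:28576896-28577145, minus strand: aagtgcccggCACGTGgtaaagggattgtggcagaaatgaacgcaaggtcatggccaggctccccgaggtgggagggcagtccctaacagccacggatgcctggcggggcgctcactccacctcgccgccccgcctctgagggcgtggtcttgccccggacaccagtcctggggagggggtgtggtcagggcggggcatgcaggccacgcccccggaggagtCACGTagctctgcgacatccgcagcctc
P4HA1, chr10:73096867-73097116, minus strand: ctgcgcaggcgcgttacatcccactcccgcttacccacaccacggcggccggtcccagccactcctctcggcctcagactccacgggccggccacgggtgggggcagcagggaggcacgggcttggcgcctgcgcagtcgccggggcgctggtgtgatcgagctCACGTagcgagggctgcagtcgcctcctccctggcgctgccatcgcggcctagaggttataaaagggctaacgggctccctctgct
HK2, chr2:74833877-74834126, plus strand: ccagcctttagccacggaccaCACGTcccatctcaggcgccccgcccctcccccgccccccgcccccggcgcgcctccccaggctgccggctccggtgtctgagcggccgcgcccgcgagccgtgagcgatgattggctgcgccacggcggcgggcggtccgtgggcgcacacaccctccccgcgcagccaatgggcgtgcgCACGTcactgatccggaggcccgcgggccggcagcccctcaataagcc
The first motif base lay 118 bases before the start in ENO2, 143, 161 and 162 in ANKRD37, 55 and 68 in SLC16A3, 28, 239 and 240 in ALDOC, 86 in P4HA1, and 48 and 229 in HK2. A match of letters is a description of the window, and no binding was measured here.

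The share of a cell's UMIs in the 28 list genes was next compared between cells. The median was 2.33% (quartiles 1.78 and 2.97) in ENC 1', 1.24% (0.904 and 1.76) in ENC 2', 1.49% (0.968 and 2.21) in ENC 3' and 2.35% (1.79 and 2.84) in ENC 4'. The ranges of ENC 1' and ENC 2' cells overlapped, with 90.9% of ENC 1' cells above the ENC 2' median. The placode cluster CP1 had a median of 1.87% and the NEP cluster, labelled neuro-epithelial progenitors, 2.46%, so high shares were also found outside the crest. In the day 10 adherent library the medians of ENC 1 to ENC 4, which are other clusters despite their names, lay between 1.11% and 1.38%. Day, culture format, medium and library cannot be told apart in that difference. Within ENC 1' the share had a Spearman correlation of -0.07 with the UMIs of a cell and -0.58 with its mitochondrial percent over 1665 cells, where both percents are shares of the same UMIs.

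**Figure D3:**
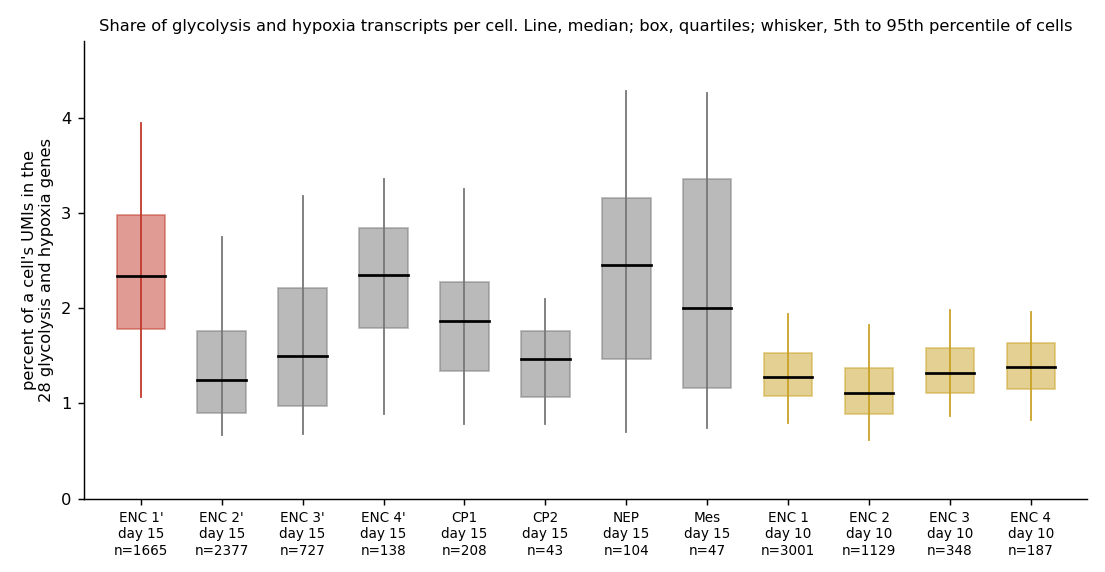
Percent of each cell's UMIs in the 28 glycolysis and hypoxia genes, by class and library (line, median; box, quartiles; whisker, 5th to 95th percentile of cells). The ENC 1' median of 2.33% is near that of ENC 4' (2.35%) and above those of ENC 2' and ENC 3', and the 4 day 10 crest clusters lie at 1.38% or below.

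The difference from ENC 2' and ENC 3' was also present within each cell cycle phase. The authors' calls put 32.8% (30.5 to 35.1) of ENC 1' cells in G1, 45.1% (42.7 to 47.5) in S and 22.1% (20.1 to 24.2) in G2M, against 28.6%, 45.3% and 26.1% in ENC 2', 48.7%, 34.9% and 16.4% in ENC 3', and 86.2%, 3.62% and 10.1% in ENC 4'. The summed level of the list in ENC 1' was 28771 CPM in G1 cells, 21307 CPM in S cells and 22971 CPM in G2M cells. In ENC 2' the same sums were 16477, 12829 and 13636 CPM, and in ENC 3' they were 18369, 14091 and 15712 CPM. In the G1 cells of ENC 4', which were 119 of its 138 cells, the sum was 23018 CPM (22754 to 23283). In the summed list, G1 cells of ENC 1' were thus above those of ENC 4', although the sums over all phases were close. The median shares per cell in G1 were 2.86% and 2.34%. GAPDH alone gave 10846 of the 23948 CPM of ENC 1' over all phases, so the sums and shares lean on it. Over all phases the ENC 1' interval lay above that of ENC 4' for 7 of the 26 genes and below for 12. These subclusters were not compared gene by gene in G1. Over the summed others, 23 of the 26 genes passed 0.5 among G1 cells only, and 21 each among S and G2M cells. Of all 6380 compared genes 284, 229 and 279 passed. Of the S phase genes 0 of 40 passed either limit over the summed others (median -0.01), and of the G2M genes 0 of 52 (median 0.08). Against ENC 4' alone 38 S phase genes passed 0.5 and 1 passed -0.5 (median 1.46). Of the G2M genes 38 passed 0.5 and 0 passed -0.5 in that comparison (median 0.78). Over all compared genes 31.4% passed 0.5 against ENC 4'.

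The 15 highest ratios named 5 genes of that list (ADM, EGLN3, ENO2, ANKRD37 and SLC16A3) and 10 others. STC1 (chr8:23841915-23854807, minus strand), a secreted glycoprotein of the stanniocalcin family, was at 50.8 CPM (47.7 to 54.1) in ENC 1', 12.9 CPM in ENC 2', 18.2 CPM in ENC 3' and 39.6 CPM in ENC 4', the highest ratio at 1.68. Its relative STC2 was at 49.3 CPM in ENC 1', 13.2 CPM in ENC 2', 15.7 CPM in ENC 3' and 56.1 CPM in ENC 4' (log2 1.61). Both were low in ENC 2' and ENC 3'. PFKFB4, an enzyme that tunes phosphofructokinase, was at 46.3 against 15.8 CPM (log2 1.49), and AK4, a mitochondrial adenylate kinase, at 48.2 against 16.9 CPM (log2 1.46). The lysyl hydroxylase PLOD2 was at 32.3 against 11.8 CPM (log2 1.38), and FAM162A was at 571 against 222 CPM (log2 1.36). These ratios are over the summed others, and ENC 4' alone was near ENC 1' or above it. In ENC 4' PFKFB4 was at 52.1 CPM, AK4 at 44.2 CPM, PLOD2 at 36.3 CPM and FAM162A at 569 CPM. Of the 15 genes, 8 had their highest level in ENC 4' and 7 in ENC 1'.

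Some genes were higher in ENC 1' than in each of the other subclusters, ENC 4' included. IGFBP5, a secreted binding protein of insulin-like growth factors, was at 34.9 CPM (32.3 to 37.7) in ENC 1', 11.3 CPM in ENC 2', 10.7 CPM in ENC 3' and 19.1 CPM in ENC 4'. The growth factor IGF2 itself was at 23.7 CPM in ENC 1', 12.4 CPM in ENC 2', 12.7 CPM in ENC 3' and 6.60 CPM in ENC 4'. In both genes ENC 1' stood above the rest. SPAG4, a protein of the nuclear envelope, was at 32.5 CPM against 10.2 to 13.2 CPM, BEND5 at 40.0 CPM against 18.2 to 19.5 CPM, and PDE4C, which degrades cyclic AMP, at 42.3 CPM against 11.1 to 24.3 CPM. NDUFA4L2, a mitochondrial protein known as a HIF target, was at 24.3 CPM in ENC 1' and 6.45 to 13.1 CPM elsewhere. ASNS, asparagine synthetase, was at 108 CPM in ENC 1', 62.9 CPM in ENC 2', 35.4 CPM in ENC 3' and 43.5 CPM in ENC 4', and TRIB3, a pseudokinase of the amino acid response, at 18.0, 9.46, 9.52 and 1.32 CPM. ASNS and TRIB3 are targets of ATF4, whose list of 22 genes had 19 compared, of which 3 (DDIT3, TRIB3 and ASNS) passed 0.5 and 0 passed -0.5 (median 0.21). ATF4 itself was at 167 against 169 CPM.

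The genes lowest in ENC 1' were led by pigment genes. MLANA (chr9:5890802-5910606, plus strand), a melanosome protein, was at 2.69 CPM (2.0 to 3.53) in ENC 1', 5.33 CPM in ENC 2', 96.8 CPM in ENC 3' and 19.8 CPM in ENC 4', a log2 ratio of -2.90. DCT, an enzyme of melanin synthesis, was at 1.63 CPM in ENC 1', 5.74 CPM in ENC 2', 52.1 CPM in ENC 3' and 40.9 CPM in ENC 4' (log2 -2.82). PMEL, which builds the fibrils of the melanosome, was at 45.9 CPM in ENC 1', 94.6 CPM in ENC 2', 551 CPM in ENC 3' and 146 CPM in ENC 4' (log2 -2.09). For all 3 genes ENC 3' was highest and ENC 1' lowest. Of the 7 melanocyte genes 4 were compared and 3 passed -0.5, while MITF, the regulator of the pigment lineage, was at 45.2 CPM in ENC 1', 25.3 CPM in ENC 2', 83.7 CPM in ENC 3' and 116 CPM in ENC 4' (log2 0.10). TYR had 1 UMI and TYRP1 had 0 UMIs in ENC 1', where 3 UMIs would be 0.158 CPM.

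All of the 10 lowest ratios were of genes with their highest level in ENC 3', and 8 had their lowest in ENC 1'. SNAI2, a transcription factor of crest migration, was at 17.1 CPM in ENC 1', 27.6 CPM in ENC 2', 87.9 CPM in ENC 3' and 28.4 CPM in ENC 4' (log2 -1.22). S100B, a calcium-binding protein of glia, was at 95.3 CPM in ENC 1', 172 CPM in ENC 2', 359 CPM in ENC 3' and 121 CPM in ENC 4' (log2 -1.14). BCAN, a proteoglycan of neural matrix, was at 17.2 against 44.5 CPM in the others (log2 -1.33), and ACP5, an acid phosphatase, at 2.95 against 14.5 CPM (log2 -1.97). ARHGDIB and NSG1 had ratios of -1.26 and -1.05, FRMD8 was at 6.90 against 14.8 CPM, and ENC 4' was the lowest for ARHGDIB and FRMD8.

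**Figure D4:**
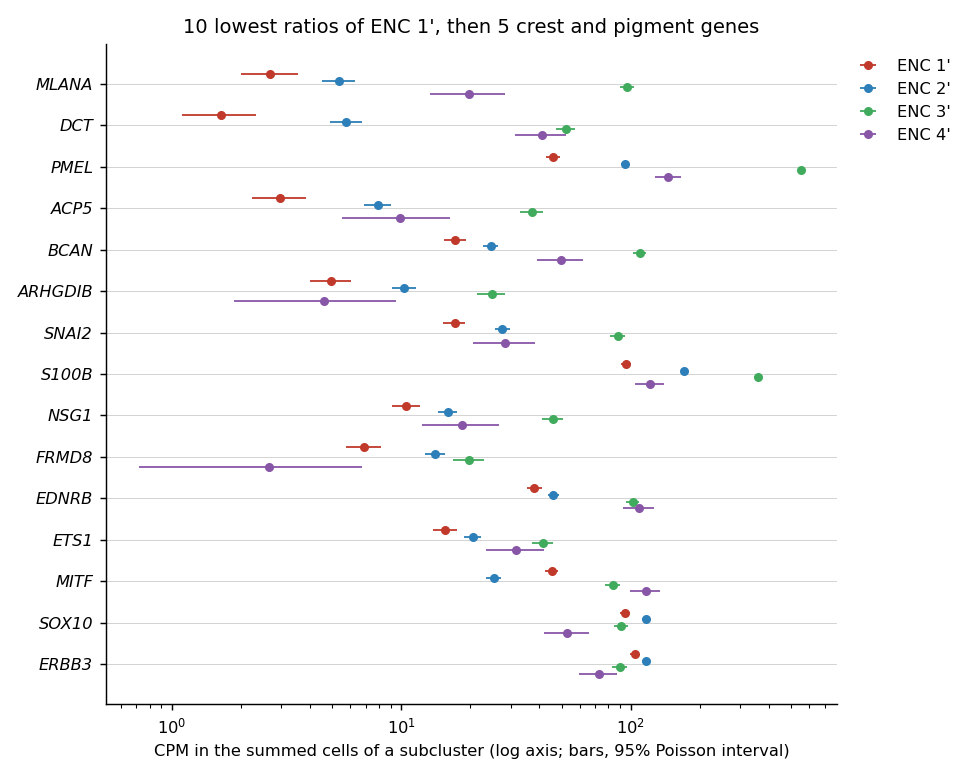
Level in CPM, on a log axis, of the 10 genes with the lowest ratio in ENC 1' and of 5 crest and pigment genes, with 95% Poisson intervals. ENC 3' lies furthest right for the 10 genes, and ENC 1' lies furthest left for 8 of them.

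Most crest and glial genes stayed within the limits in the ratio over the summed others. Of the 20 compared neural crest genes 0 passed 0.5 and 2 (ETS1 and SNAI2) passed -0.5, with a median of -0.06. Against ENC 2' alone 0 passed 0.5 and 1 passed -0.5, against ENC 3' alone 4 and 4, and against ENC 4' alone 8 and 5. Over all compared genes the shares past 0.5 and -0.5 were 4.36% and 2.76% against ENC 2'. They were 6.85% and 3.24% against ENC 3', and 31.4% and 7.07% against ENC 4'. FOXD3, an early crest factor, was at 25.5 against 21.9 CPM and TFAP2A at 41.8 against 42.1 CPM. Of 13 Schwann cell precursor and glial genes, TTYH1 passed 0.5 (114 against 65.8 CPM, log2 0.78), S100B passed -0.5, and the list median was 0.03. Against ENC 2' alone 1 passed 0.5 and 1 passed -0.5, and against ENC 3' and ENC 4' alone 4 and 2 each. The summed level of the glial list was 1444 CPM in ENC 1', 1405 CPM in ENC 2', 1919 CPM in ENC 3' and 2051 CPM in ENC 4', so ENC 1' lay near ENC 2'. Of 20 enteric progenitor genes only 5 were expressed enough to be compared. EDNRB, the endothelin receptor needed for gut colonisation, was at 38.0 CPM (35.3 to 40.9) in ENC 1', 46.1 CPM in ENC 2', 102 CPM in ENC 3' and 109 CPM in ENC 4' (log2 -0.67). RET, the GDNF receptor of enteric progenitors, had 2 UMIs in ENC 1' and was thus near 0.

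PAX6, TWIST1 and PRRX1 were near 0 in ENC 1', although other members of the neuro-epithelial and mesenchymal lists were counted there. STMN2 and SST were counted in ENC 1' at far lower levels than in the placode cluster CP1. STMN2, a neuronal gene, was at 14.4 CPM and SST, a peptide hormone gene, at 57.8 CPM, while in CP1 cells of the same library they were at 1543 and 7858 CPM. In thinned cells 3.78% of ENC 1' and 3.66% of ENC 2' cells had an STMN2 UMI, and 14.8% of ENC 1' cells an SST UMI. PAX6, an NEP marker, had 0 UMIs in ENC 1', where 3 UMIs would be 0.158 CPM. TWIST1 and PRRX1, markers of mesenchyme, had 8 and 1 UMIs. The 13 neuro-epithelial genes summed to 116 CPM in ENC 1', 130 CPM in ENC 2', 104 CPM in ENC 3' and 89.0 CPM in ENC 4'. Of these 2 were compared and 0 passed either limit over the summed others. Over the summed others, 0 of 6 compared neuronal genes passed 0.5 and 1 (NSG1) passed -0.5, and 0 of 5 mesenchymal genes passed either limit. Of the 11 epithelial and 21 HOX genes 0 were expressed enough to be compared. The 20 mesenchymal genes summed to 2114 CPM (2093 to 2134) in ENC 1', 1466 CPM (1452 to 1481) in ENC 2', 2728 CPM in ENC 3' and 2210 CPM in ENC 4'. Most of each sum was VIM, an intermediate filament that crest cells also express, at 1726 CPM in ENC 1', 1080 CPM in ENC 2', 2215 CPM in ENC 3' and 1832 CPM in ENC 4' (log2 0.68 against ENC 2').

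Ribosome biogenesis and cholesterol synthesis genes had list medians below that of all genes in the ratio over the summed others, and the order differed by subcluster. Of 21 ribosome biogenesis genes 4 (NOP16, NOP2, BOP1 and RRP9) passed -0.5, with a list median of -0.24. The list median was -0.35 against ENC 2' alone (7 genes passed -0.5), 0.0017 against ENC 3' (0 passed either limit) and 0.22 against ENC 4' (10 passed 0.5). All compared genes had medians of -0.07, 0.03 and 0.23 in these comparisons, and 31.4% of them passed 0.5 against ENC 4'. By its median the list thus lay near all genes against ENC 3' and ENC 4'. The summed level was 5073 CPM in ENC 1', 5478 CPM in ENC 2', 4824 CPM in ENC 3' and 5231 CPM in ENC 4'. The 18 compared cholesterol synthesis genes had a median of -0.26 over the summed others, -0.41 against ENC 2' alone, -0.04 against ENC 3' and 0.99 against ENC 4', and their summed level was 913 CPM in ENC 1', 1157 CPM in ENC 2', 888 CPM in ENC 3' and 536 CPM in ENC 4'. ENC 1' was thus below ENC 2' in both lists and above ENC 4' in cholesterol genes. Nuclear genes of the respiratory chain had a median of -0.12 over 83 genes, mitochondrially encoded genes 0.00 over 13 and cytoplasmic ribosomal protein genes 0.0040 over 85, lists that were added after the ratios were seen. In these 3 lists NDUFA4L2 alone passed 0.5.

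Among matrix genes 3 of 20 passed 0.5, all of them fibrillar collagens. COL11A1 was at 26.1 CPM (23.8 to 28.5) in ENC 1', 9.99 CPM in ENC 2', 8.30 CPM in ENC 3' and 17.2 CPM in ENC 4' (log2 1.31), COL2A1 was at 18.3 against 10.3 CPM (log2 0.77) and COL5A2 at 30.7 against 19.2 CPM (log2 0.65). Of 7 guidance and migration genes CXCR4, a chemokine receptor, passed 0.5 at 71.5 CPM in ENC 1', 32.6 CPM in ENC 2', 31.7 CPM in ENC 3' and 119 CPM in ENC 4' (log2 0.97), and so did the ephrin EFNB2 at 33.6 against 23.3 CPM (log2 0.51). Over the summed others, no compared gene of the FGF (11), WNT (7), BMP (3), Notch (6), retinoic acid (7) or pluripotency (6) lists passed either limit. Against ENC 4' alone 7 FGF genes passed 0.5 and 1 passed -0.5 (median 1.34, beside 0.23 for all genes). These counts were 3 and 0 for WNT, 1 and 0 for BMP, and 3 and 2 for Notch. They were 1 and 2 for retinoic acid and 3 and 0 for pluripotency. In the stress lists, over the summed others, JUND passed 0.5 among 12 heat shock and immediate early genes. SESN1 passed among 10 p53 response genes (15.4 against 8.73 CPM, log2 0.75).

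**Figure D5:**
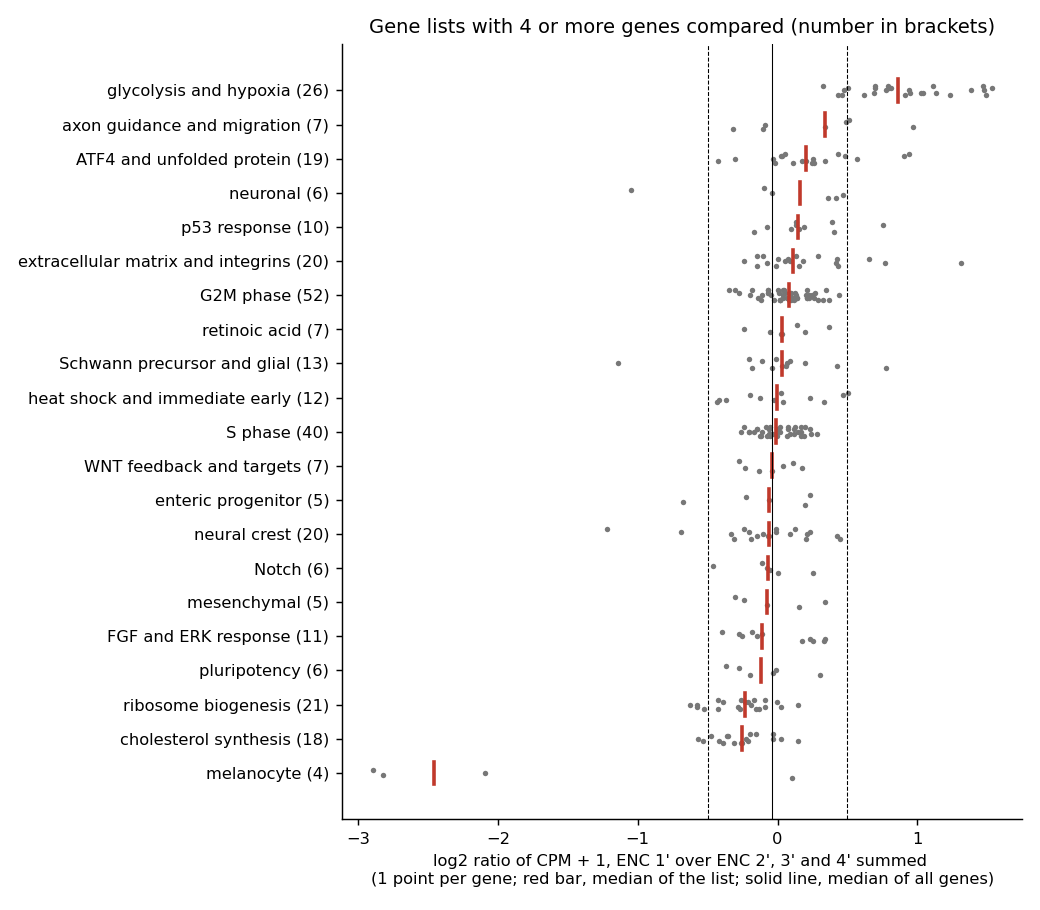
Log2 ratio of ENC 1' over the other numbered subclusters for each compared gene, by list, with the list median as a red bar, the limits dashed and the median of all genes as a solid line. The glycolysis and hypoxia list has the highest median (0.86) and the melanocyte list of 4 genes the lowest (-2.46).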

How the data were processed

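Transcripts of H9-derived cells were captured in droplets with a 10x Genomics 3′ kit (version 3.1). The authors deposited raw UMI counts per gene and cell and a metadata table. According to their methods the counts came from kallisto and bustools, whereas the submitters' processing notes name Cell Ranger, Seurat 4.0.4 and GRCh38. The authors kept cells with 1500 to 3500 genes, under 20000 UMIs and under 10% mitochondrial UMIs, regressed out cell cycle scores, depth and the percents of mitochondrial and ribosomal UMIs, and clustered the ENCCs again to obtain the numbered subclusters, after leaving out a cluster high in SYP. According to their methods, cells were also stained with antibodies that tag each sample, pooled, and assigned to samples with Seurat. No doublet step was added here. The cell classes and phases used here are theirs.

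The cells of each class were added up and scaled to CPM by their own total. Log2 ratios used CPM + 1, so the change of low genes is understated. With 1 library per stage no test was run. Poisson and Clopper-Pearson intervals are exact, at 95%, and cover counting error only. Cells were thinned to 3000 UMIs without replacement for shares of cells with a UMI, and no kept cell had fewer (lowest 5966). The members, lists and alternatives were chosen with earlier results of these data known. Named genes were the 15 highest and 10 lowest ratios, the 8 genes highest and 5 lowest against each other subcluster, the 8 with the highest Fano factor in thinned cells, and list members, leaving out mitochondrial and ribosomal protein genes, and the Fano set stands in the closing section. Some genes that the rule or the lists hold are not reported here. CMTM8, C19orf12, TMEM147, CA9 and NDRG1 fall outside that rule. The alternatives were another pseudocount, minimum level, limit or scaling, equal weights of subclusters, single phases, leaving out the deepest cells and rebuilt clusters. Python 3.11.15, scanpy 1.11.5, R 4.3.3, Seurat 5.3.0 and edgeR 4.0.16 (for TMM factors only) were used. Gene positions are from GENCODE 29 on GRCh38 and promoters from RefSeq on GRCh38.p14. Day 10 counts were used for levels beside those of day 15 only.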

Additional observations from a re-analysis of the deposited data

How the results depend on the processing

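No paired analysis was possible because each stage had 1 library, both with replicate number 1. Given equal weight, so that the 138 ENC 4' cells count as much as each other subcluster, 6 of the 26 glycolysis and hypoxia genes passed 0.5 with a median of 0.40. SOX10 then had a ratio of 0.12 and ERBB3 of 0.16, and ADM (-0.14) and EGLN3 (-0.054) reversed; 77 of the 220 higher and 27 of the 93 lower genes were shared. Without ENC 4' the list median was 1.00. Rebuilt clusters put 70.0% of ENC 1' cells and 95.7% of ENC 4' cells in 1 cluster, which held 27.3% of numbered cells and had 226 lower genes, a list median of 0.98 and an ERBB3 ratio of -0.25. Lower genes numbered 38 at a pseudocount of 5 CPM, 549 in G1 cells (ERBB3 -0.24) and 187 in G2M cells. The list median was 0.98 in S cells. At 50 CPM, 53 genes were higher, 14 lower and 13 of the list higher. With no minimum, 668 were higher and 310 lower. At 1 log2 unit, 49 were higher, 11 lower and 10 of the list higher. Phases scored again with scanpy put 26.2% of ENC 1' cells in G1, 41.3% in S and 32.6% in G2M, and without the deepest 10% of cells G2M was 18.4%. SOX10 was seen in 36.2% of cells at 5000 UMIs, 61.3% without thinning and 4.02% with at least 2 UMIs, and ERBB3 in 39.0%, 64.1% and 4.14%. The S and G2M splits, the split without ENC 4' and the list values under other settings were added after the data were seen. Of 290 other ratios of 29 named genes, 193 stayed within counting error, 95 moved and 2 reversed. Levels near 10 CPM rest on few UMIs in ENC 4'.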

Other observations

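Variation among ENC 1' cells was described by the Fano factor (variance over mean) in cells thinned to 3000 UMIs, which had a median of 1.04 over the 1735 genes with at least 50 CPM. The highest values were those of MALAT1, a nuclear non-coding RNA (24.3), GAPDH (6.81), the histone gene HIST1H4C (5.67), BCYRN1, a small non-coding RNA (3.56), TOP2A (3.17), IGFBP2 (2.91), TUBA1B (2.78) and CENPF (2.59). HIST1H4C was at 842 CPM in G1, 1997 CPM in S and 3049 CPM in G2M cells of ENC 1', TOP2A at 59.4, 181 and 893 CPM, CENPF at 61.9, 171 and 731 CPM, and TUBA1B at 1705, 2921 and 3639 CPM. GAPDH had the opposite order for G1, at 13512 CPM against 9621 CPM in S and 9892 CPM in G2M. IGFBP2, a binding protein of insulin-like growth factors, was at 2147 CPM in G1, 1333 CPM in S and 1385 CPM in G2M cells, and at 1588 CPM over all ENC 1' cells beside 730 CPM in ENC 2', 832 CPM in ENC 3' and 1434 CPM in ENC 4'. BCYRN1 is made of repeated sequence found across the genome, so its counts are uncertain.

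In the day 10 crest cells IGFBP2 was at 48.6 CPM, STC1 at 6.66 CPM and SLC2A1 at 21.6 CPM. Of the 26 glycolysis and hypoxia genes 25 were lower there than in ENC 1', with DDIT4 the exception (573 CPM at day 10 and 545 CPM in ENC 1'). Stage, culture format, medium and library cannot be told apart in these values. In the day 15 NEP cluster 18 of the 26 genes were at a higher level than in ENC 1'.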
